A study of Mus musculus with 1615 samples.

Results

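The insulin-like growth factor (IGF) ligands, their main receptor and the IGF binding proteins were followed through the cell classes of the mouse colon. The set comprised 9 genes of the 46517 gene identifiers in the deposited count table, taken by symbol through their Ensembl identifiers: the ligands Igf1 and Igf2, the receptor Igf1r, and the 6 binding proteins Igfbp2, Igfbp3, Igfbp4, Igfbp5, Igfbp6 and Igfbp7. All 9 were detected and all 9 passed the filter on low counts. Igfbp1, a binding protein gene beside Igfbp3 on chromosome 11, had 0 counts in the whole table.

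The table holds 1615 single cells from 11 mice, sorted into plate wells and sequenced by Smart-Seq2, a full-length method without molecular identifiers. The mice carried 1 of 5 reporter genotypes, which the labels give as ACTA2GFP (13 cells, 2 male mice), ACTA2GFP:CSPG4dsRED (1106 cells, 2 female mice and 1 male), CSPG4dsRED (117 cells, 1 male), PDGFRaH2bGFP (91 cells, 2 males) and PDGFRbGFP (288 cells, 3 males). In such lines the promoter of a smooth muscle actin, of the proteoglycan NG2 or of a platelet-derived growth factor receptor drives a fluorescent protein, so each line offers other cells to the sorter. The ages are labelled as 8 to 30 weeks for every mouse, none was treated, and the gates used for sorting are not stated. The tissue is labelled colon throughout, while the text on dissociation names heart, and the text on the series names males alone.

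IGF1 and IGF2 are small secreted proteins that signal through the tyrosine kinase receptor IGF1R. In the extracellular fluid nearly all IGF is held by binding proteins, which prolong its life, keep it from the receptor or, once cut by proteases, release it near the cell. IGFBP7 binds IGFs only weakly and is often listed as an IGF binding protein-related protein. In the gut wall, IGF1 is known as a growth factor of the smooth muscle layers.

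The labels give no cell types, so cells were clustered on genes that left out the 9 members, and clusters were named by marker genes. The 9 classes were visceral smooth muscle-like (543 cells), vascular smooth muscle-like (99), pericyte-like (167), fibroblast-like (213), blood endothelium-like (358), lymphatic endothelium-like (79), epithelium-like (59), immune-like (55) and glia-like, for enteric or Schwann glia (42). A cell held 45388 to 1046988 gene counts (median 194180), and the class medians lay between 127471 in pericyte-like and 276245 in fibroblast-like cells. Counts were summed per mouse and class wherever a mouse gave at least 5 cells, which made 30 sums, and levels are counts per 1000000 gene counts (CPM) of those sums. The mouse is the replicate, and the number of mice per class ran from 1 (vascular smooth muscle-like, mouse 20GG95:3) to 6 (blood endothelium-like). Some sums were mixed. In mouse 20GG79:6 the immune-like sum held 3025 CPM of the 10 immune markers against 15146 CPM in mouse 19CB27:3, together with 4354 CPM of 9 pericyte markers against 68.4 CPM. Doublets were not called, and 40 cells carried markers of another class.

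Igf1 was highest in immune-like and visceral smooth muscle-like cells, at 252 ± 198 CPM (SD, n = 2 mice) and 248 ± 19.0 CPM (n = 3). The visceral smooth muscle-like sums of mice 20GG79:1, 20GG79:6 and 20GG95:3 held 230, 268 and 247 CPM, and the immune-like sums of mice 19CB27:3 and 20GG79:6 held 392 and 112 CPM. The 3 muscle values lay close together, and the immune values spread to both sides of them. Fibroblast-like cells came next with 101 ± 86.8 CPM (n = 4), from 30.5 CPM in mouse 19CB4:5 through 52.5 and 96.7 to 225 CPM in mouse 19CB38:5. All 4 fibroblast values lay below the 3 visceral muscle values, although the highest of them, from a sum of 5 cells, came close.

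At the other end, the vascular smooth muscle-like sum of mouse 20GG95:3 held 3.86 CPM of Igf1, where the visceral smooth muscle-like cells of the same mouse held 247 CPM. Lymphatic endothelium-like cells held 3.27 ± 4.15 CPM (n = 5) and pericyte-like cells 11.9 ± 15.1 CPM (n = 3), with 29.4 CPM in mouse 20GG79:1 and 3.32 and 3.03 CPM in the others. Blood endothelium-like cells held 41.9 ± 16.4 CPM (n = 6), but 95.7% of these counts came from the tenth of cells with the most. Only 15.6% of the 358 cells had an Igf1 count after every cell was thinned to 45000 counts (36.3% before thinning). In visceral smooth muscle-like cells the thinned share was 57.1% (73.3% before), and 40.7% of the cells (95% exact binomial interval 36.5 to 45.0%) held at least 100 CPM. The lowest thinned share was the 7.59% of lymphatic endothelium-like cells. Before thinning, median depth was 179143 gene counts in visceral smooth muscle-like, 237326 in blood and 209142 in lymphatic endothelium-like cells. The part of depth in the shares before thinning was not tested. Intervals of this kind cover counting error only.

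**Figure D1:**
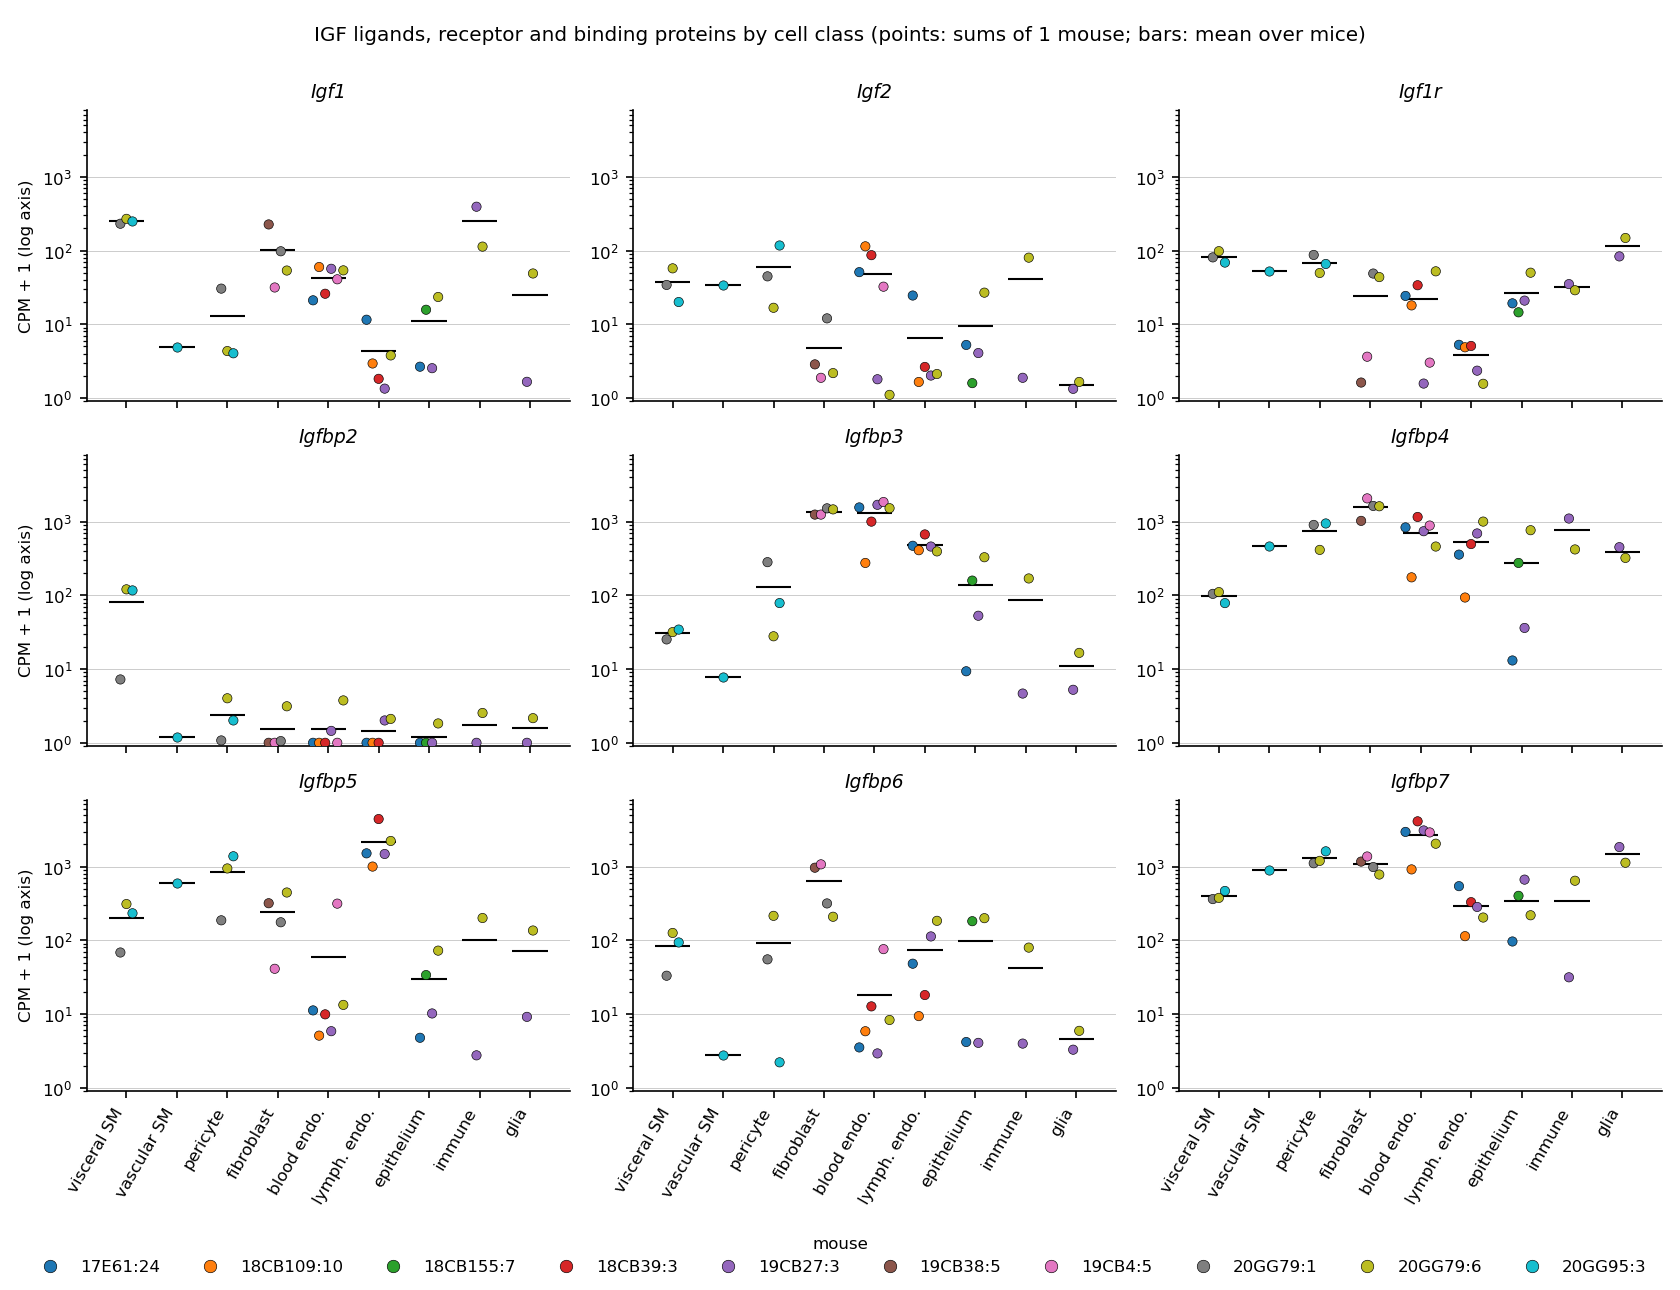
Levels of the 9 genes in 9 cell classes. Each point is the sum of all cells of a class in 1 mouse (CPM + 1, log axis, colour by mouse) and each bar is the mean over mice; Igfbp2 is above 3.02 CPM in visceral smooth muscle-like sums alone, and Igfbp7 is at 30.5 CPM or more in every sum.

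Igf2, the second ligand and an imprinted gene known for its high expression before birth, was patchy. Its class means were 58.4 ± 51.7 CPM in pericyte-like (n = 3), 46.8 ± 45.7 in blood endothelium-like (n = 6), 39.9 in immune-like (0.873 and 79 CPM, n = 2), 36.1 ± 18.8 in visceral smooth muscle-like cells (n = 3) and 32.7 CPM in the vascular smooth muscle-like sum. Neighbours in this order overlapped in each case. The 79 CPM belongs to the mixed immune-like sum of mouse 20GG79:6. Its 25 cells with 563 CPM of immune markers held 94.0 CPM of Igf2, and its 5 cells with 15912 CPM of them held 0.532 CPM. The place of immune-like cells in this order therefore rests on cells low in immune markers. Pericyte-like cells held 43.6, 15.7 and 116 CPM in mice 20GG79:1, 20GG79:6 and 20GG95:3. Among the 6 mice with blood endothelium-like cells the lowest value was 0.0986 CPM (20GG79:6) and the highest 113 CPM (18CB109:10), and 99.1% of the class's Igf2 counts came from the tenth of cells with the most. In pericyte-like cells 28.1% of cells had a count after thinning (38.9% before), in visceral smooth muscle-like cells 17.3% (23.9%), and in blood endothelium-like cells 8.94% (22.3%). Glia-like cells held the least, 0.326 and 0.646 CPM in mice 19CB27:3 and 20GG79:6. H19, the imprinted neighbour of Igf2, had 11 counts in all cells. The antisense genes Igf2os and Igf1os had 304 and 23 counts against 12566 and 41851 for Igf2 and Igf1. Without strand information, reads of a gene and of its antisense partner cannot be told apart.

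Within visceral smooth muscle-like cells, Igf2 lay mostly in cells that also held Igf1. Of cells with at least 100 CPM of Igf2, 9 of 15 in mouse 20GG79:1, 8 of 10 in 20GG79:6 and 10 of 18 in 20GG95:3 also had at least 100 CPM of Igf1, where 77 of 157, 27 of 66 and 117 of 320 of all cells had. The share was larger among the Igf2-high cells in each of the 3 mice, and this was not tested.

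The receptor gene Igf1r was highest in glia-like cells with 82.2 and 147 CPM (mice 19CB27:3 and 20GG79:6), then in visceral smooth muscle-like cells with 79.7, 97.0 and 67.6 CPM (mice 20GG79:1, 20GG79:6 and 20GG95:3). Pericyte-like cells followed with 86.1, 48.6 and 64.7 CPM in the same 3 mice, and the vascular smooth muscle-like sum with 51.5 CPM. These 4 classes overlapped from neighbour to neighbour. In lymphatic endothelium-like cells Igf1r was lowest, at 2.81 ± 1.73 CPM (n = 5, 0.553 to 4.25 CPM). In blood endothelium-like cells it ran from 0.564 CPM (19CB27:3) to 51.2 CPM (20GG79:6), and in fibroblast-like cells from 0.615 CPM (19CB38:5) to 47.7 CPM (20GG79:1). Even in visceral smooth muscle-like cells the median cell had 0 CPM of Igf1r and 28.4% of cells had a count after thinning (42.7% before).

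To compare the binding proteins with each other, their CPM were divided by the kilobases of merged exons, since the exon length ran from 1112 bases (Igfbp6) to 6006 bases (Igfbp5). On this per-length scale Igfbp7 made up the largest share of the 6 binding proteins in 25 of the 30 sums. The exceptions were the immune-like sum of mouse 19CB27:3, where Igfbp4 made up 89.5%, and 4 of the 5 lymphatic endothelium-like sums, where Igfbp5 led with 39.7, 54.6, 27.9 and 35.1%. In the lymphatic sum of mouse 17E61:24 Igfbp7 led with 46.1%. In the mixed immune-like sum of mouse 20GG79:6 Igfbp7 led with 67.7%. Before division by length, its 5 cells with high immune markers held 220 CPM of Igfbp4 and 35.1 CPM of Igfbp7. Its other 25 cells held 459 and 759 CPM. Igfbp7 made up 89.9 to 93.4% in glia-like, 72.5 to 85.1% in blood endothelium-like, 68.6 to 73.9% in pericyte-like and 37.0 to 41.1% in fibroblast-like cells, and was 27.7, 54.2, 89.9 and 95% in the 4 epithelium-like sums. The sum over the 6 genes ran from 87.8 to 4006 CPM per kilobase.

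**Figure D2:**
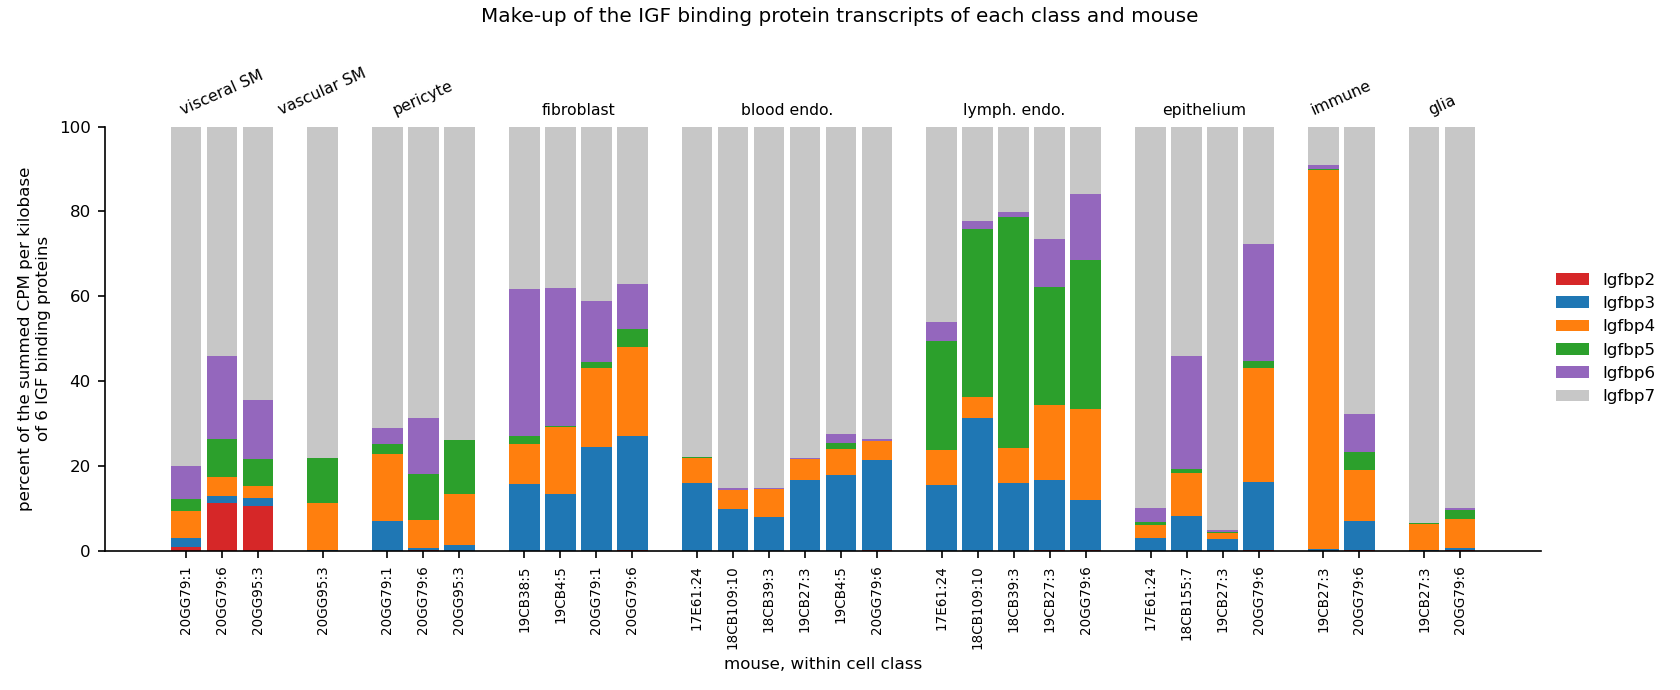
Make-up of the binding protein transcripts. Each bar is the sum of 1 class in 1 mouse, divided into the shares of the 6 genes in the summed CPM per kilobase (percent); the grey Igfbp7 part is 89.9% or more in both glia-like and 2 of the 4 epithelium-like sums and 72.5 to 85.1% in blood endothelium-like sums, the green Igfbp5 part leads in 4 of the 5 lymphatic endothelium-like sums, and the red Igfbp2 part is visible in visceral smooth muscle-like cells alone.

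Igfbp2, a binding protein with an integrin-binding motif, was the most class-restricted of the 6. The visceral smooth muscle-like sums held 6.24, 120 and 116 CPM in mice 20GG79:1, 20GG79:6 and 20GG95:3, and every other sum of the 30 held at most 3.02 CPM. Visceral smooth muscle-like cells and the next class, pericyte-like cells with 0.0761, 3.02 and 1.01 CPM in the same mice, did not overlap. Mouse 20GG79:1 stood far below the other mice: its sum of 157 cells was close to the values of other classes. In mouse 20GG79:6 every sum held some Igfbp2, though only 1 count in epithelium-like and 2 counts in lymphatic endothelium-like cells. At least 1 Igfbp2 count was found in 38.8% of fibroblast-like and 37.5% of blood endothelium-like cells, beside 57.6% of visceral smooth muscle-like cells. After thinning these shares were 10.4, 6.25 and 33.3%. No fibroblast-like or blood endothelium-like cell of that mouse held 100 CPM, while 10.6% of its visceral smooth muscle-like cells did.

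Within visceral smooth muscle-like cells, high Igfbp2 and high Igf1 were seldom found in the same cell. Of the 543 cells, 221 held at least 100 CPM of Igf1 and 47 at least 100 CPM of Igfbp2, and 2 held both. By mouse, both were found in 0 of 157 cells of 20GG79:1 (77 Igf1-high, 3 Igfbp2-high), 1 of 66 cells of 20GG79:6 (27 and 7) and 1 of 320 cells of 20GG95:3 (117 and 37). With 3 and 7 Igfbp2-high cells the first 2 mice tell little, so this rests mostly on mouse 20GG95:3. It was not tested. Igfbp6 was at 100 CPM or more in 3 of 3, 3 of 7 and 21 of 37 Igfbp2-high cells. Among all visceral smooth muscle-like cells of these mice it was in 10 of 157, 12 of 66 and 45 of 320. The share was larger among the Igfbp2-high cells in each mouse, few in the first 2, and this was not tested. Igfbp6-high and Igf1-high cells shared 0, 2 and 3 cells in the same 3 mice.

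Most Igfbp2-high cells lay in 1 cluster of 108 visceral smooth muscle-like cells, found without the 9 genes, with Shisa3 and Cpe among its leading genes. In mouse 20GG95:3 the 98 cells of that cluster held 366 CPM of Igfbp2 against 1.39 CPM in the other 222 visceral cells, and in 20GG79:1 its 8 cells held 114 CPM against 0.154 CPM in the other 149. Igfbp6 followed, with 270 against 10.9 CPM and 408 against 10.9 CPM. Igf1 went the other way, with 24.9 against 350 CPM and 63.3 against 239 CPM. Igfbp5 was at 380 against 163 CPM and 105 against 65.3 CPM, and Igfbp7 at 717 against 351 CPM and 556 against 351 CPM. The cluster against the rest of its class is a description and was not tested. The pattern was seen on both plates of mouse 20GG95:3. On its plate with 101 visceral cells the cluster was 31.7% of the class, with 271 against 0.686 CPM of Igfbp2 and 12.8 against 332 CPM of Igf1. On its plate with 219 it was 30.1%, with 453 against 2.04 CPM and 35.9 against 366 CPM. In mouse 20GG79:6, 63 of the 66 visceral cells fell into another cluster led by Hhip, Agt and Actg2, which held 113 CPM of Igfbp2, 130 CPM of Igfbp6 and 265 CPM of Igf1.

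**Figure D3:**
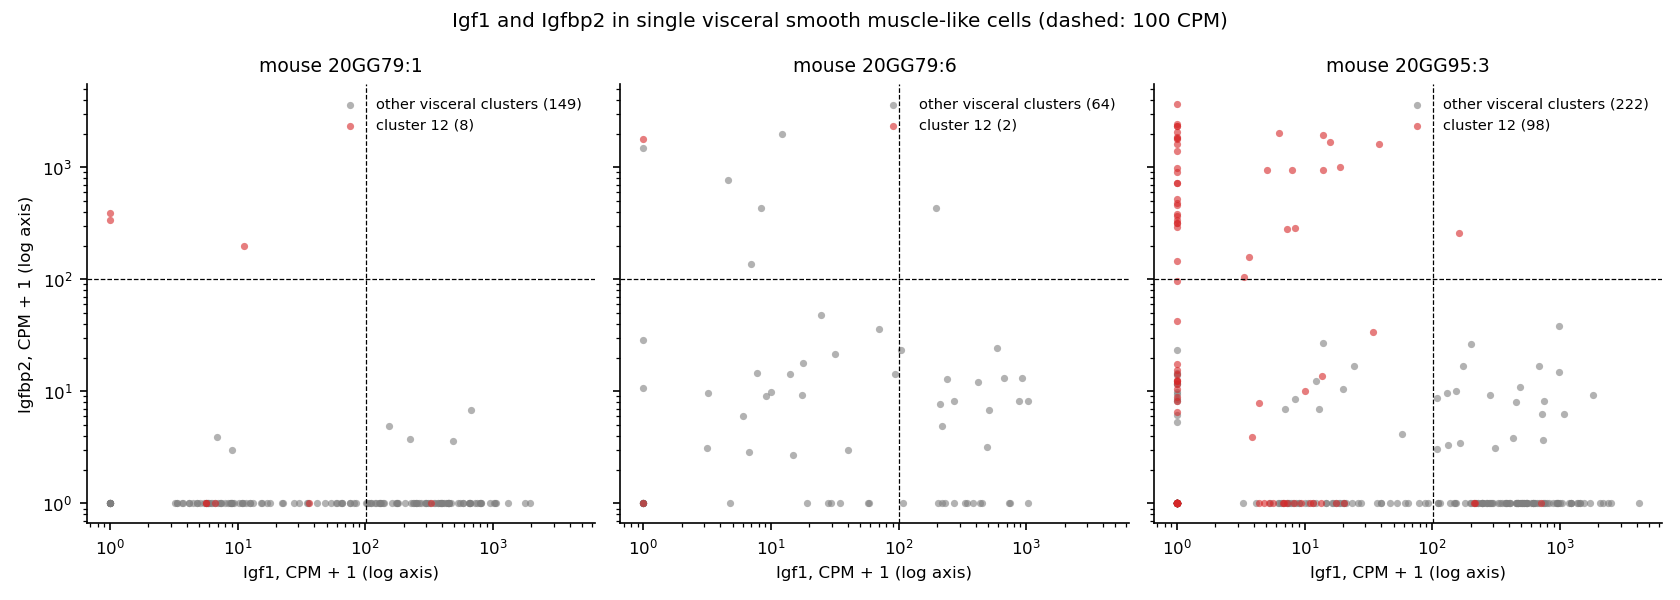
Igf1 (x axis) and Igfbp2 (y axis) in single visceral smooth muscle-like cells (CPM + 1, log axes), 1 panel per mouse; red points are the cells of that cluster of 108 and dashed lines mark 100 CPM. The upper right quadrant holds 0, 1 and 1 cells.

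Igfbp3, the main carrier of IGF in blood plasma, was a gene of fibroblast-like and blood endothelium-like cells. Fibroblast-like sums held 1250, 1250, 1520 and 1471 CPM in mice 19CB38:5, 19CB4:5, 20GG79:1 and 20GG79:6 (1373 ± 143 CPM). The first 2 are sums of 5 cells each. In mouse 19CB38:5 a single cell gave 98.6% of the Igfbp3 counts and the median cell held 65.1 CPM, and in 19CB4:5 a single cell gave 74.9% and the median cell held 678 CPM. In 20GG79:1 and 20GG79:6, with 126 and 67 cells, the largest share of 1 cell was 3.40 and 9.28%. Blood endothelium-like sums ran from 275 CPM (18CB109:10) to 1852 CPM (19CB4:5) with a mean of 1320 ± 587 CPM (n = 6). The 2 classes overlapped. Lymphatic endothelium-like cells held 471, 410, 672, 460 and 395 CPM in mice 17E61:24, 18CB109:10, 18CB39:3, 19CB27:3 and 20GG79:6, and every sum of the 6 remaining classes lay below the lowest of these values. Visceral smooth muscle-like cells held 24.3, 30.8 and 33.4 CPM and the vascular smooth muscle-like sum 6.90 CPM.

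Igfbp4, which inhibits IGF action until the protease PAPP-A cuts it, was highest in fibroblast-like cells at 1590 ± 431 CPM (1027, 2075, 1638 and 1622 CPM in mice 19CB38:5, 19CB4:5, 20GG79:1 and 20GG79:6). It was spread over more classes than Igfbp3. Immune-like cells held 1105 and 420 CPM (mice 19CB27:3 and 20GG79:6), pericyte-like cells 905, 414 and 947 CPM, and the vascular smooth muscle-like sum 464 CPM. Visceral smooth muscle-like cells had the lowest mean, with 104, 110 and 77.7 CPM in mice 20GG79:1, 20GG79:6 and 20GG95:3. Immune-like values overlapped those of fibroblast-like cells, and in mouse 20GG79:6, which gave both classes, fibroblast-like cells were higher. The immune-like sum of that mouse is the mixed one. Its 5 cells with high immune markers held 220 CPM of Igfbp4 and its other 25 cells 459 CPM.

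Igfbp6, which prefers IGF2 over IGF1, was highest in fibroblast-like cells at 641 ± 442 CPM. The sums of mice 19CB38:5 and 19CB4:5, of 5 cells each, held 967 and 1074 CPM and those of 20GG79:1 and 20GG79:6 held 316 and 208 CPM. The next class, epithelium-like cells, held 3.17, 181, 3.06 and 199 CPM in mice 17E61:24, 18CB155:7, 19CB27:3 and 20GG79:6, all below the lowest fibroblast-like sum. In the 2 epithelium-like sums with 181 and 199 CPM all 8 fibroblast markers were at 10 CPM or more, with a summed level of 3401 and 6945 CPM, against 95 and 231 CPM in the other 2. The part of these markers in the Igfbp6 level was not tested. In pericyte-like cells Igfbp6 ran from 1.21 CPM (20GG95:3) to 214 CPM (20GG79:6), so it overlapped the fibroblast-like values: in mouse 20GG79:6 the pericyte-like sum was just above the fibroblast-like one. In lymphatic endothelium-like cells it ran from 8.37 CPM (18CB109:10) to 183 CPM in mouse 20GG79:6, whose sum of 5 cells also held 2167 CPM of the fibroblast markers, 7 of 8 at 10 CPM or more, against 28.2 to 247 CPM in the other 4 mice; their part was not tested.

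Fibroblast-like cells divided into 2 clusters, found without the 9 genes, that held unlike amounts of these 3 binding proteins in mouse 20GG79:1. This rests on 1 mouse, the only one with at least 5 cells in both clusters. In mouse 20GG79:1 the 81 cells of the cluster led by Htra3 and C1qtnf3 held 2115 CPM of Igfbp3, 2472 CPM of Igfbp4 and 485 CPM of Igfbp6, against 564, 300 and 44.4 CPM in the 45 cells of the cluster led by Pdgfra and Bmp7. In mouse 20GG79:6 the 63 cells of that second cluster held more, 1436 CPM of Igfbp3, 1534 CPM of Igfbp4 and 191 CPM of Igfbp6. The difference between the clusters was not tested. Of the 213 fibroblast-like cells 163 held at least 100 CPM of Igfbp3 and 169 of Igfbp4, and 144 held both.

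Igfbp5, a matrix-binding member of the family, was highest in lymphatic endothelium-like cells at 2133 ± 1357 CPM. Mice 17E61:24, 18CB109:10, 18CB39:3, 19CB27:3 and 20GG79:6 held 1516, 1002, 4430, 1485 and 2231 CPM. Pericyte-like cells followed with 186, 945 and 1383 CPM (mice 20GG79:1, 20GG79:6 and 20GG95:3) and overlapped them, and the vascular smooth muscle-like sum of 20GG95:3 held 603 CPM. In that mouse the order was pericyte-like, vascular and then visceral smooth muscle-like cells with 232 CPM. In single cells, 70.9% of lymphatic endothelium-like cells held at least 100 CPM and the median cell held 1484 CPM, against 4.47% and 8.14 CPM in blood endothelium-like cells.

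Igfbp7, a marker of endothelium in many organs, was found in 98.5 to 100% of cells of every class. Blood endothelium-like cells were highest at 2678 ± 1086 CPM (n = 6; lowest 917, highest 4123 CPM). Glia-like cells held 1845 and 1130 CPM and pericyte-like cells 1112, 1198 and 1614 CPM (mice 20GG79:1, 20GG79:6 and 20GG95:3). Lymphatic endothelium-like cells had the lowest mean, 294 ± 162 CPM (n = 5). Immune-like cells of mouse 19CB27:3 held 30.5 CPM, the lowest single sum.

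Igfbp2 and Igfbp5 lie tail to tail on mouse chromosome 1 with 5457 bases between their ends, yet their highest classes differed, so their upstream sequences are shown beside that of Igfbp7, which with Igfbp5 parted the endothelial classes. The sequences come from the RefSeq windows of 250 bases before each start site on GRCm38.p6, the one of Igfbp5 trimmed to 231 bases that end before the GENCODE gene: chr1:72824230-72824479 (plus strand) for Igfbp2, chr1:72874885-72875115 (minus strand) for Igfbp5 and chr5:77408046-77408295 (minus strand) for Igfbp7. Each is written 5′ to 3′ along the gene's strand, and capitals mark the motif GGGCGG or its reverse complement, the core of the GC box bound by SP factors.
Igfbp2: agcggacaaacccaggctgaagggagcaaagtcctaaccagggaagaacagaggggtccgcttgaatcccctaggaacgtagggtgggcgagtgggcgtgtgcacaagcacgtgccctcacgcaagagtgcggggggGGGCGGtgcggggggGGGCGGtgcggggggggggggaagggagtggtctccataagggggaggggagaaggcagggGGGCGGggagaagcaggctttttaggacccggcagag
Igfbp5: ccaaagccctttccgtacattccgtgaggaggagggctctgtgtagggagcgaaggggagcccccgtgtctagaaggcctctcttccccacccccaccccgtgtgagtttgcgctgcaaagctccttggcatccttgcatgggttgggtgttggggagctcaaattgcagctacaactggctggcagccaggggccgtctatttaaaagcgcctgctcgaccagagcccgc
Igfbp7: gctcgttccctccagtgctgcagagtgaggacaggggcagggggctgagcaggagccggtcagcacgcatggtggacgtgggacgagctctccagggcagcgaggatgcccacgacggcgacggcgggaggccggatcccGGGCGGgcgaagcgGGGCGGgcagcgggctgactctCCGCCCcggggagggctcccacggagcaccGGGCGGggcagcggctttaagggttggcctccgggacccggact
RefSeq lists a second start site for Igfbp2, whose window (chr1:72825137-72825386, plus strand) held 0 such motifs. The Igfbp2 window shown held 3, the Igfbp7 window 4 and the Igfbp5 window 0, and 32.7% of the 32851 RefSeq windows of that length held at least 1 on either strand. None of these 3 windows held TATAAA, which 12.4% of all windows held, or the CArG box of serum response factor, which 1.47% held. No match says only that these letters are not in the window.

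The comparison of lymphatic with blood endothelium-like cells asked which binding protein each endothelium carries. Of the 9 genes, Igfbp5 rose and Igfbp7 fell in lymphatic endothelium-like cells, and 7 did not pass the test. At an unadjusted p under 0.05 there were 5 of the 9, beside 3159 of the 21996 genes tested. DESeq2 called 5 of the 9, adding Igf1, Igf1r and Igfbp6, beside 908 higher and 2163 lower genes among all. edgeR's quasi-likelihood test with Benjamini-Hochberg adjustment over 21996 genes called 2.77% of all genes in this comparison (165 higher and 444 lower; 213 and 345 with the size factors of the relative log expression method). The median log2 fold change of the 9 was -1.15, and that of all genes -0.44. With the other scalings the median of all genes was -0.18 (relative log expression) and 0.00 (DESeq2), and Igfbp5 stayed above and Igfbp7 below it.

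Igfbp5 in blood endothelium-like cells ran from 4.09 CPM over a median of 9.53 CPM to 314 CPM, the last in mouse 19CB4:5. The 5 lymphatic sums held 1002 to 4430 CPM. The groups did not overlap, and Igfbp5 was higher in 5 of 5 mice with both classes. The log2 fold change was 7.61 (SE 1.02, edgeR adjusted p = 1.11e-04). Without the mouse as a block it was 5.07 (edgeR adjusted p = 0.0181), and the class means were 2133 and 59.1 CPM. The blood endothelium-like sum of mouse 19CB4:5, the sixth mouse, also held 1806 CPM of the 7 lymphatic markers, all at 10 CPM or more, against 196 to 344 CPM in the other 5, and 1348 CPM of the 8 fibroblast markers against 73.6 to 288 CPM. Their part in its Igfbp5 level was not tested, and without that mouse the call was kept.

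Igfbp7 in lymphatic endothelium-like cells was 543, 113, 329, 283 and 203 CPM in mice 17E61:24, 18CB109:10, 18CB39:3, 19CB27:3 and 20GG79:6, against 2962, 917, 4123, 3100 and 2048 CPM in the blood endothelium-like cells of the same mice. It was lower in 5 of 5 mice and the groups did not overlap. The log2 fold change was -3.18 (SE 0.59, edgeR adjusted p = 0.00282). With sums of at least 10 cells, which keep 2 lymphatic mice, the fold change was -2.95 and the adjusted p 0.154.

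Igf1 in lymphatic endothelium-like cells was 10.5, 1.93, 0.813, 0.335 and 2.77 CPM against 20.1, 58.7, 24.9, 55.5 and 52.8 CPM in the blood endothelium-like cells of the same mice in the same order. The groups did not overlap, but the change of -4.19 (SE 1.20) did not pass the test with edgeR's adjusted p = 0.0598. Without mouse 17E61:24 the adjusted p was 0.0199, and over the alternatives it ran from 7.96e-04 with DESeq2 to 0.647 with sums of at least 10 cells. Igf1r had a log2 fold change of -3.05 (SE 0.99, edgeR adjusted p = 0.106) and Igfbp6 one of 3.30 (SE 1.12, edgeR adjusted p = 0.126). Both were called by DESeq2, with an adjusted p of 0.00363 for Igf1r and 8.17e-04 for Igfbp6, and Igfbp6 also by edgeR without the filter on low counts, with an adjusted p of 0.0109.

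**Figure D4:**
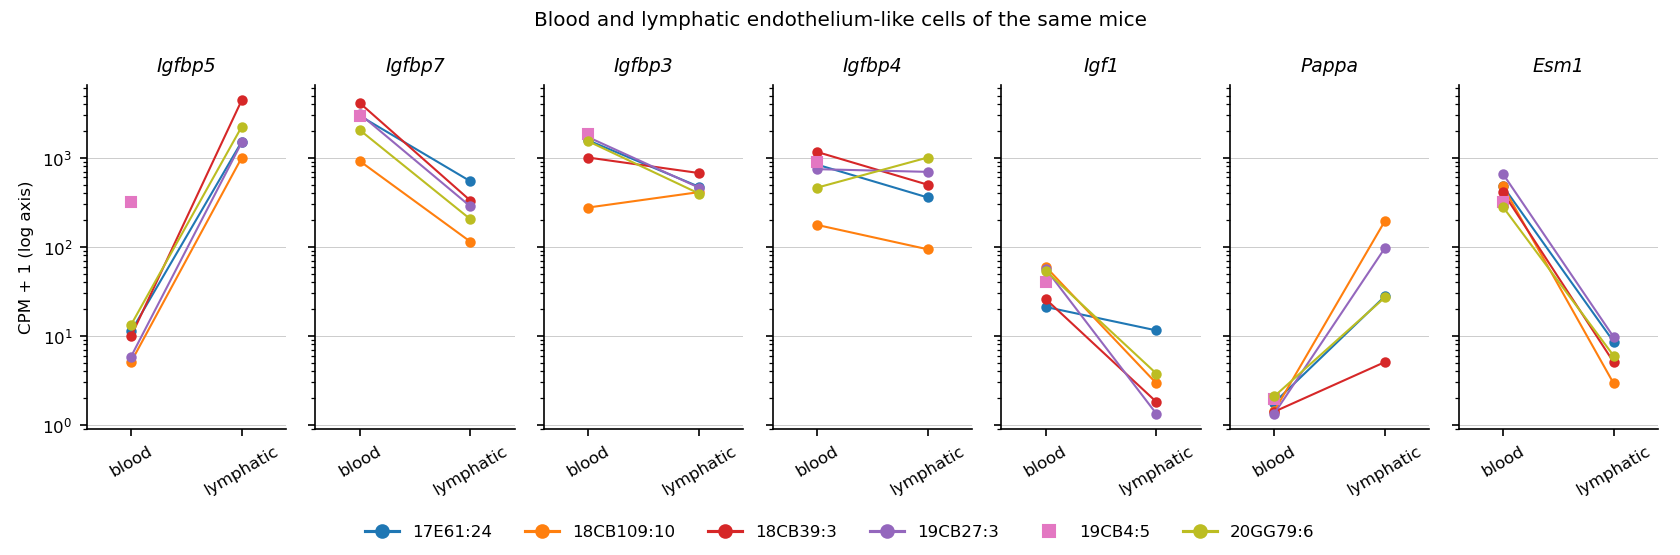
Blood and lymphatic endothelium-like cells of the same mice for 5 of the 9 genes and 2 others of the pathway (CPM + 1, log axis). Each line joins the 2 sums of 1 mouse, and the square is mouse 19CB4:5, which gave no lymphatic sum; all 5 lines go up for Igfbp5 and Pappa and down for Igfbp7, Igf1 and Esm1.

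The other 5 comparisons asked how muscle, pericyte and fibroblast classes differ, and they share sums with one another. edgeR called 0 of the 9 genes in each of them. It called 0% of all genes for visceral against vascular smooth muscle-like cells, 0% for pericyte-like against vascular smooth muscle-like cells, 0.0227% for pericyte-like against visceral smooth muscle-like cells, 0% for fibroblast-like against visceral smooth muscle-like cells and 0.837% for fibroblast-like against blood endothelium-like cells. The pericyte against visceral calls were 3 higher and 2 lower genes, against 4 and 1 with relative log expression scaling and 308 and 266 with DESeq2. The fibroblast against blood calls were 84 higher and 100 lower genes, against 104 and 88 with relative log expression scaling and 853 and 635 with DESeq2. At an unadjusted p under 0.05, 2, 1, 4, 3 and 1 of the 9 genes were found in that order, and DESeq2 called 1, 0, 3, 2 and 1. Over all genes the numbers at an unadjusted p under 0.05 were 971, 618, 1327, 841 and 2232, and those called by DESeq2 479, 331, 574, 156 and 1488. The vascular smooth muscle-like class rests on 1 mouse, so its comparisons take their spread from the other classes.

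Where the pair of classes was fitted alone with the mouse as a block, several of the 9 genes passed. Such a fit keeps only mice that gave both classes. These were 3 for pericyte-like and 2 for fibroblast-like against visceral smooth muscle-like cells. Against blood endothelium-like cells they were 2 for fibroblast-like and 5 for lymphatic endothelium-like cells. With 2 or 3 mice such a fit leaves few residual degrees of freedom, which limits its p-values. For pericyte-like against visceral smooth muscle-like cells 1.48% of all genes were called, and of the 9 Igfbp4 (log2 fold change 2.91, adjusted p = 0.0116), Igfbp7 (1.72, 0.0149), Igfbp2 (-6.07, 0.0278), Igf1 (-5.21, 0.0292) and Igfbp5 (1.91, 0.0372) were among them, all from edgeR. In the fit of all classes the same genes had edgeR adjusted p-values of 0.415, 0.764, 0.324, 0.324 and 0.869, with nearly the same fold changes. For Igfbp4, Igfbp7, Igfbp2 and Igf1 the pericyte and visceral values of the 3 mice did not overlap. For Igfbp5 and the other genes of the 9 they did. The share of all genes without overlap was not computed, so this adds no support to the calls.

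For fibroblast-like against visceral smooth muscle-like cells, fitted alone on 2 mice (20GG79:1 and 20GG79:6), edgeR called 2.71% of all genes and 5 of the 9. Over all sums, 4 fibroblast-like and 3 visceral smooth muscle-like, only Igfbp5 of the 9 overlapped between the classes. The share of all genes without overlap was not computed. The changes that follow are from the fit on 2 mice. Igfbp3 was 5.76 higher on the log2 scale (adjusted p = 5.31e-05) and Igfbp4 3.92 higher (7.70e-05), while Igfbp2 had a change of -6.15 (0.00699), Igfbp7 of 1.24 (0.0167) and Igf1 of -1.81 (0.0460). In the fit of all classes Igfbp3 had a log2 fold change of 5.75 (SE 1.17, edgeR adjusted p = 0.219) and Igfbp4 one of 4.25 (adjusted p = 0.597). For fibroblast-like against blood endothelium-like cells, fitted alone on 2 mice (19CB4:5 and 20GG79:6), 3.08% of all genes were called and Igfbp6 among them. The fibroblast-like sum of 19CB4:5 holds 5 cells. The log2 fold change of Igfbp6 was 4.50 (edgeR adjusted p = 5.74e-04) against 3.87 (SE 1.49, adjusted p = 0.312) in the fit of all classes. Lymphatic against blood endothelium-like cells gave 3.47% of all genes in such a fit.

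Of the other genes of the pathway, a list of 39 receptors, proteases, adaptors, kinases and relatives of the binding proteins, 36 were tested. In lymphatic against blood endothelium-like cells 1 rose (Pappa), 1 fell (Esm1) and 34 did not pass, with a median log2 fold change of -0.21 against -0.44 for all genes. In each of the other 5 comparisons edgeR called 0 of the 36, with 2, 2, 0, 8 and 10 at an unadjusted p under 0.05 and 1, 2, 0, 3 and 9 called by DESeq2.

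Pappa encodes PAPP-A, the protease that cuts IGFBP4 and IGFBP5. It held 26.8, 194, 4.07, 95.9 and 26.0 CPM in the lymphatic endothelium-like sums of mice 17E61:24, 18CB109:10, 18CB39:3, 19CB27:3 and 20GG79:6, and 0.339 to 1.09 CPM in the 6 blood endothelium-like sums. The groups did not overlap. The log2 fold change was 5.61 (SE 1.20, edgeR adjusted p = 0.00955), and 0.0565 was the adjusted p when the 2 classes were fitted alone. Its highest level was in glia-like cells, at 593 ± 127 CPM (n = 2), and fibroblast-like cells held 79.9 ± 64.0 CPM (n = 4). Stc1 and Stc2, inhibitors of PAPP-A, were highest in other classes: Stc1 in blood endothelium-like cells at 342 ± 256 CPM (n = 6) and Stc2 in fibroblast-like cells at 49.9 ± 46.0 CPM (n = 4). Lymphatic endothelium-like cells also held Stc1, at 206 ± 213 CPM (n = 5). Their values, from 1.93 to 454 CPM, overlapped those of blood endothelium-like cells (90.4 to 800 CPM).

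Esm1, a secreted proteoglycan of endothelium whose amino-terminal domain resembles that of the binding proteins, held 1.93 to 8.72 CPM in lymphatic and 280 to 658 CPM in blood endothelium-like sums. The groups did not overlap, and the log2 fold change was -6.56 (SE 1.01, edgeR adjusted p = 4.69e-04); with sums of at least 10 cells the adjusted p was 0.0703. Htra1 and Htra3, serine proteases that carry the same domain, were highest in fibroblast-like cells at 956 ± 405 and 1545 ± 871 CPM (n = 4), and visceral smooth muscle-like cells held 606 ± 157 CPM of Htra1 (n = 3). The adaptor Irs1, which couples IGF1R to its kinase cascade, was at 50.8 ± 21.2 CPM in visceral smooth muscle-like (n = 3) and 78.2 ± 47.1 CPM in pericyte-like cells (n = 3), and at 3.27 ± 5.54 and 0.516 ± 0.692 CPM in blood (n = 6) and lymphatic (n = 5) endothelium-like cells. Insr, the insulin receptor, was highest in blood endothelium-like cells at 77.8 ± 39 CPM (n = 6). Igf2r, the receptor that clears IGF2, ran on average from 21.4 CPM in pericyte-like cells (highest 36.2 CPM) to 74.2 CPM in glia-like cells (lowest 56.1 CPM). These 2 classes did not overlap, and the 6 blood endothelium-like sums, from 14.6 to 122 CPM, overlapped both.

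Among 9093 genes, the pattern most like that of each member was sought by the correlation of log2(CPM + 1) over the 30 sums. These points share mice and classes, so the values describe them and were not tested. Igfbp2 was most like Tacr2, the neurokinin 2 receptor of gut muscle (r = 0.91), then Adora1 (0.81) and Wscd2 (0.79). Igfbp3 was most like Gja1 and Cd34 (both 0.88), Igfbp5 like Ecm2 (0.86), Prelp (0.85) and Ntn1 (0.83), and Igfbp6 like Hsd11b1 (0.82). Igf1 was most like Ptgs1 (0.80), Rgs10 (0.79) and Entpd1 (0.76), Igf1r like Krba1 (0.80), Igfbp7 like Socs5 (0.81), Igf2 like Hdac10 (0.75) and Igfbp4 like Tspan4 (0.65).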

How the data were processed

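Whole-number counts per gene of 1615 single cells were deposited by the authors, with 92 spike-ins that were left out here (1.88% of all counts). Per the submitters' processing notes, Bowtie, Bowtie2, Subread, featureCounts and bcl2fastq were named with GRCm38 and mm10; neither versions nor roles are stated. Symbols came from GENCODE for 46005 of 46517 identifiers. The members and lists were chosen with earlier results of these data known.

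CPM is the count of a gene per 1000000 gene counts of a cell or of a sum. Cells were clustered with scanpy 1.11.5 (Python 3.11.15) on 2091 genes without the members, the pathway list and every second gene in alphabetical order (20 components, 15 neighbours, Leiden resolution 1), which gave 19 clusters, and each cluster took the name of the marker list that led it. No doublet caller was run; a repeat left out the 40 cells holding 2 or more foreign class markers. Counts were summed per mouse and class (at least 5 cells). The same mice gave several classes, so the mouse, named in the labels, paired the sums; mouse, plate, sex and reporter line cannot be told apart for most mice. Where nothing else is said, tests are edgeR 4.0.16 (R 4.3.3): TMM scaling, filterByExpr, robust quasi-likelihood fit of class and mouse over all 30 sums (12 residual degrees of freedom), with Benjamini-Hochberg adjustment over the tested genes not used for clustering and a threshold of 0.05. On simulated counts for fibroblast-like against visceral smooth muscle-like cells (21938 genes) this fit recovered 11% of 100 genes changed 4-fold and 84% of 100 changed 16-fold. The simulated counts had the same spread for every gene and no mouse effect, so these shares need not hold for the real sums. Alternatives were DESeq2 1.42.0, other scalings, filters, cell minimums, clusterings and left-out mice or plates. Every member was named; of the pathway list, genes with an adjusted p at or below 0.05 and at least 50 CPM in the higher class. Levels of other list genes were chosen after their values were seen. Promoter windows are from RefSeq, GRCm38.p6.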

Additional observations from a re-analysis of the deposited data

Results flagged for a closer look

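In 10 of the 36 gene and class groups with 4 to 6 mice, 1 mouse lay far from the others relative to the whole range (Dixon's test at the 95% level, which chance passes in about 1 in 20 groups). Mouse 20GG79:6 gave 4 of them: Igf2 in epithelium-like cells at 25.8 CPM (others 0.586 to 4.23), and Igfbp2 in fibroblast-like cells at 2.13 CPM (others 0 to 0.0544), blood endothelium-like cells at 2.76 CPM (others 0 to 0.451) and epithelium-like cells at 0.831 CPM (others 0). This is also a mouse with one of the highest Igfbp2 levels in visceral smooth muscle-like cells. Its epithelium-like Igfbp2 value of 0.831 CPM was 1 count.

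Mouse 17E61:24 gave the high Igf1 and Igf2 values in lymphatic endothelium-like cells, 10.5 CPM (others 0.335 to 2.77) and 23.5 CPM (others 0.644 to 1.63). They lay on 1 of its 2 plates: the first, of 119 cells, held 17.4 CPM of Igf1 and 38.9 CPM of Igf2 in 22 cells, and the other held 0.501 and 1.34 CPM in 19 cells. Over both plates, a single cell of the 41 gave 92.8% of the Igf1 counts (916 CPM in that cell) and a single cell gave 86.9% of the Igf2 counts. Mouse 19CB4:5 gave the high Igfbp5 and Igfbp6 values in blood endothelium-like cells, 314 CPM (others 4.09 to 12.3) and 75 CPM (others 1.92 to 11.7). Its lymphatic and fibroblast marker levels stand beside the Igfbp5 result. Igf2 in fibroblast-like cells was 11 CPM in mouse 20GG79:1 (others 0.872 to 1.85), and Igfbp3 in lymphatic endothelium-like cells was 672 CPM in mouse 18CB39:3 (others 395 to 471), a sum of 9 cells.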

How the results depend on the processing

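The counts of called genes depended on the fit. With DESeq2 they were 479, 331, 574, 156, 1488 and 3071 (visceral against vascular, pericyte against vascular, pericyte against visceral, fibroblast against visceral, fibroblast against blood and lymphatic against blood endothelium-like cells), where edgeR gave 0, 0, 5, 0, 184 and 609. Without the filter on low counts they were 38, 7, 103, 28, 436 and 987. Without the replicate block (mouse), the last 2 were 1832 and 949 and pericyte against visceral 0; with each pair fitted alone and the block kept, the last 4 were 207, 432, 409 and 368. Sums of at least 10 cells gave 35, 2, 86 and 127 for these 4, cells of at least 100000 counts 10, 2, 25 and 298, and sums of at least 2 cells, chosen after seeing the data, 0, 4 and 329 for the first 3 of them and 15 and 1 against vascular cells. Pericyte against visceral gave 3 and 0 at Leiden resolutions 0.5 and 2, 8 without mixed cells (fibroblast against visceral 1) and 10 without the larger plate of mouse 20GG95:3; pericyte against vascular gave 1 without the smaller. Leaving out 1 mouse at a time gave 0 to 0, 0 to 1, 0 to 16, 0 to 3, 0 to 202 (0 without 20GG79:6, 7 without 19CB4:5, 58 without 20GG79:1) and 347 to 606 (347 without 18CB39:3). The cause of these shifts was not tested.

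The fold changes of Igfbp5 and Igfbp7 in lymphatic against blood endothelium-like cells kept their direction in every alternative. Igfbp5 in lymphatic endothelium-like cells was called in 23 of 23 alternatives and Igfbp7 in 22 of 23. Igfbp2, not called there in any of 22, turned from 0.24 to -2.42 in cells of at least 100000 counts, -1.16 without mouse 19CB27:3 and -0.44 without the replicate block. The class with the highest level stayed the same for 7 to 9 of the 9 genes; Igf1 moved to visceral smooth muscle-like cells without mouse 19CB27:3 or 20GG79:1, without mixed cells and as a mean over single cells. Igf2 moved to blood endothelium-like cells without mouse 20GG95:3 (29.7 CPM left in pericyte-like cells). Without 19CB27:3 it moved to immune-like cells, a class that then rests on the mixed sum of mouse 20GG79:6 alone. Igfbp3 moved to blood endothelium-like cells without 18CB109:10 or 18CB39:3 and as a mean over single cells, and Igf1r to visceral smooth muscle-like cells without mixed cells. The all-gene median moved from -0.15 to 0.06 and 0.24 (fibroblast against blood) and from -0.16 to -0.02 and 0.03 (pericyte against visceral) with relative log expression and DESeq2 scaling. Small sums, 5 cells in several, and the 1 vascular mouse limit the precision. Comparisons with vascular cells could not be fitted alone or without mouse 20GG95:3.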

Other observations

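The immune-like class held 2 kinds of cells that a finer clustering, looked at after the data were seen, kept apart, and their Igf1 differed. In mouse 19CB27:3 the 20 immune-like cells held 392 CPM of Igf1 and 1105 CPM of Igfbp4 with 15146 CPM of the immune markers. In mouse 20GG79:6, 5 cells of the same finer cluster held 289 CPM of Igf1 with 15912 CPM of immune markers. The other 25 cells of that mouse held 78.1 CPM of Igf1, 94.0 CPM of Igf2 and 759 CPM of Igfbp7, with 563 CPM of immune markers and 2623 CPM of Cspg4, Notch3 and Ndufa4l2 together, which are pericyte genes. The cells with high immune markers in mouse 19CB4:5, 3 in number, held 6.88 CPM of Igf1.

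Visceral smooth muscle-like cells of 1 small cluster of 23 cells, led by Rgs10 and Actg2 and all from mouse 20GG95:3, held 716 CPM of Igf1 and 849 CPM of Igfbp7, where all visceral smooth muscle-like cells of that mouse held 247 and 467 CPM. Grb10, an adaptor that restrains signalling from the insulin and IGF1 receptors, was at 196 ± 75.1 CPM in glia-like (n = 2), 125 ± 64.4 CPM in blood endothelium-like (n = 6) and 115 ± 36.7 CPM in fibroblast-like cells (n = 4), while visceral smooth muscle-like cells held 26.4 ± 18.9 CPM (n = 3). Foxo1, a transcription factor that the kinase branch holds in the cytoplasm, was at 193 ± 139 CPM in lymphatic (n = 5) and 99.0 ± 42.6 CPM in blood endothelium-like cells (n = 6). The phosphoinositide 3-kinase subunit gene Pik3r1 was at 162 ± 46.2 CPM in pericyte-like cells, and visceral smooth muscle-like cells held 49.9 ± 25 CPM (n = 3 each). These genes were chosen after their values were seen, and edgeR called none of them in the comparisons above.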
